A study of Mus musculus with 12 samples.

Results

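The electron transport chain and ATP synthase of the mouse liver were followed through 103 genes of the gene table, which lists 19252 genes in all. Members were the genes whose symbol starts with Nduf, Sdha to Sdhd, Uqcr, Cox4i, Cox5 to Cox8, Atp5, mt-Nd, mt-Co, mt-Cytb or mt-Atp and whose mean over the 12 libraries was at least 1 TPM (a share of all transcripts, corrected for their length). Of 109 genes with such a symbol, 103 reached that mean. The rule itself uses only symbols and mean levels, but it was set with earlier results of these data known. Nuclear DNA encodes 90 of them and mitochondrial DNA 13. The libraries come from the liver of C57BL/6 mice fed for 14 weeks, 4 per group. NAC_HFD mice ate a high fat diet and drank water with 2 g of N-acetylcysteine per litre, HFD mice ate the high fat diet alone, and NFD mice ate a normal fat diet. N-acetylcysteine is a cysteine precursor from which cells make the antioxidant glutathione. The labels give an age of 8 weeks for all groups without saying when it was taken. They also do not say whether the libraries of a group come from separate animals. P-values therefore set group differences against the spread between these samples, which may not be the spread between animals.

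Mitochondria oxidise NADH at complex I and succinate at complex II, pass the electrons through complex III to oxygen at complex IV, and use the resulting proton gradient to make ATP at complex V. Complexes I, III, IV and V join subunits of both genomes, whereas all of complex II is nuclear. The mitochondrial genes are transcribed within the organelle as long precursors that are cut into shorter RNAs, while the nuclear genes each have a promoter of their own. The liver uses this machinery to burn fatty acids and to pay for glucose and urea synthesis.

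Promoters of nuclear members held short motifs known from respiratory genes more often than promoters of all genes did. RefSeq (GRCm38.p6) gave a promoter window of 300 bases, from 250 before to 50 after the gene start, for 77 of the 90 nuclear members and for 27025 genes in all. The letters GCGCA followed after 1 further base by GCGC, bound by NRF1, were found on either strand in 27.3% of member promoters (21 of 77) and 5.19% of all. CCGGAAG, bound by the ETS factor GABP, was in 27.3% of member promoters (21 of 77) and 9.93% of all. AAGATGGC, bound by YY1, was in 14.3% of member promoters and 3.19% of all, and CAAGGTCA, bound by the oestrogen-related receptors, was in 5.19% of member promoters and 1.76% of all. At least 1 of the 4 was in 58.4% of member promoters and 17.9% of all. Matches to different motifs were counted separately where they overlapped, and a match describes letters, not binding. The 27025 genes were not filtered by their level in liver, whereas members had a mean of at least 1 TPM. The shares therefore cannot show whether the motifs are particular to respiratory genes among expressed genes.

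Shown are the 150 bases before the transcript start of the RefSeq promoter table for both genes that passed a test below and had an entry, Ndufaf1 (chr2:119662835-119662984) and Ndufc1 (chr3:51408956-51409105), and of the most abundant members with a match in that stretch. These are Atp5h (chr11:115419920-115420069) for NRF1, Atp5j (chr16:84834977-84835126) for YY1 and Atp5g3 (chr2:73911327-73911476) for the oestrogen-related receptors. All 5 genes lie on the minus strand of GRCm38.p6, the letters run 5′ to 3′ along the gene, and capitals mark the matches. For Ndufaf1 this start lies a few bases inside the outer end of the gene given below. Ndufaf1 holds a GABP match, Atp5h an NRF1 and a reversed GABP match, Atp5j a YY1 and a GABP match, and Atp5g3 a reversed match for the oestrogen-related receptors. Ndufc1 has none here, although its longer window holds AAGATGGC.
Ndufaf1: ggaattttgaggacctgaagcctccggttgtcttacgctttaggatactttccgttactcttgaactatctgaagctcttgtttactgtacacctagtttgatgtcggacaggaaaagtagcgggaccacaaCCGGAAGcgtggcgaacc
Ndufc1: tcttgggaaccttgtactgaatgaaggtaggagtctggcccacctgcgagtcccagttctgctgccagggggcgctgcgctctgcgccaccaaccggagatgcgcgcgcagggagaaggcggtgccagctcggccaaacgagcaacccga
Atp5h: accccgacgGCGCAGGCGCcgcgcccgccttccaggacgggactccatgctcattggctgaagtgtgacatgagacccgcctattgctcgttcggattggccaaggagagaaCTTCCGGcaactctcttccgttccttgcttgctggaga
Atp5j: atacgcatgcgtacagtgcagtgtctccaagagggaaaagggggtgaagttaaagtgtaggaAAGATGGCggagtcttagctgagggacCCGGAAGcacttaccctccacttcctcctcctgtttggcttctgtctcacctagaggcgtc
Atp5g3: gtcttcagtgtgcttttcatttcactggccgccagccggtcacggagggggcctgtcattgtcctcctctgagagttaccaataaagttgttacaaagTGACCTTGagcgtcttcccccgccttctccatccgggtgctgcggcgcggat

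Nearly all subunits of the chain were abundant liver RNAs by gene TPM, and isoforms of other tissues were almost missing. Of 76 nuclear subunits, 75 had a mean between 20 and 450 TPM, with a median of 98.3 TPM over the 76, against a median of 9.05 TPM over all tested genes. In coding transcripts alone some were far lower, namely Ndufc1 (0.774 TPM), Atp5f1 (1.68 TPM) and Ndufa3 (3.25 TPM). The highest were Cox6c (431 TPM), a complex IV subunit with 171 TPM in coding transcripts, Uqcrq (417 TPM), a complex III subunit, and Atp5a1 and Atp5b (406 and 396 TPM), the catalytic head of ATP synthase. The lowest was Cox7a1 at 1.89 TPM, the heart and muscle isoform of a complex IV subunit, beside 96.9 TPM of its liver counterpart Cox7a2. The 6 genes left out for a mean under 1 TPM include Cox4i2 (0.02 TPM), the lung isoform, and Cox6a2 and Cox8b (0.06 and 0.03 TPM), which belong to heart and muscle. They also include Cox6b2 (0.52 TPM), the testis isoform, Ndufa4l2 (0.57 TPM) and a second Atp5o entry (0.07 TPM). Just inside the limit lay Sdhaf3 (1.23 TPM), a complex II assembly factor, and Cox7a1. The 12 assembly factors of complexes I and II were low as a class, between 1.23 and 17.3 TPM with a median of 6.25 TPM. Lowest of complex I was Ndufaf5, an assembly factor, at 1.89 ± 0.507 TPM in NAC_HFD, 2.48 ± 0.729 TPM in HFD and 1.90 ± 0.319 TPM in NFD, and highest its accessory subunit Ndufa3, at 179 ± 17.2 TPM in NAC_HFD, 201 ± 16.3 TPM in HFD and 183 ± 20.6 TPM in NFD. Of Ndufa3, 98.3% sat in the lncRNA table, and its coding transcripts averaged 3.25 TPM, far under the 140.3 TPM of Ndufb9, the highest of complex I in coding transcripts. Lowest of complex V was Atp5s, a coupling factor that is not a subunit, at 3.94 ± 1.16 TPM in NAC_HFD, 3.50 ± 0.578 TPM in HFD and 4.88 ± 1.47 TPM in NFD. None of these 3 passed in any comparison, and their groups overlapped.

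The label of the tissue held: 6 hepatocyte markers summed to 39314 to 58986 TPM in each library, whereas 4 skeletal muscle markers summed to at most 2.23 TPM and 3 heart markers to at most 0.42 TPM. Depth is unknown, since TPM keeps no read counts. In a bulk sample, fewer cells of a type and less RNA per cell cannot be told apart. A single assembled transcript outside the gene table, MSTRG.6188.1, took 23.5% to 29.6% of all TPM in a library, and every other value shares what remains. NFD replicate 4 and HFD replicate 4 stood apart from their groups in mitochondrial RNA. HFD replicate 4 also had 1936 TPM of the acute phase gene Saa1, against 38.0 to 119 TPM in the other HFD libraries.

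Mitochondrially encoded genes took about the same share of liver RNA in all 3 groups. They made up 10.1%, 11.7%, 11.9% and 9.82% of gene-table TPM in NAC_HFD, 11.2%, 11.4%, 11.01% and 8.91% in HFD, and 9.66%, 10.4%, 9.10% and 12.6% in NFD. The group means were 10.9 ± 1.08% in NAC_HFD, 10.6 ± 1.16% in HFD and 10.5 ± 1.55% in NFD (SD, n = 4 each). The groups overlapped, and the means differed by less than the spread within any group. The 90 nuclear genes together made up 1.44 ± 0.0353% in NAC_HFD, 1.56 ± 0.129% in HFD and 1.53 ± 0.0877% in NFD. The 4 NAC_HFD libraries lay between 1.39% and 1.46%, the HFD libraries between 1.42% and 1.68%, and the NFD libraries between 1.42% and 1.63%. The sum of mitochondrial over nuclear members was 7.59 ± 0.831 in NAC_HFD, 6.83 ± 0.516 in HFD and 6.88 ± 1.42 in NFD, again with overlap. These sums are descriptions with no test.

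**Figure D1:**
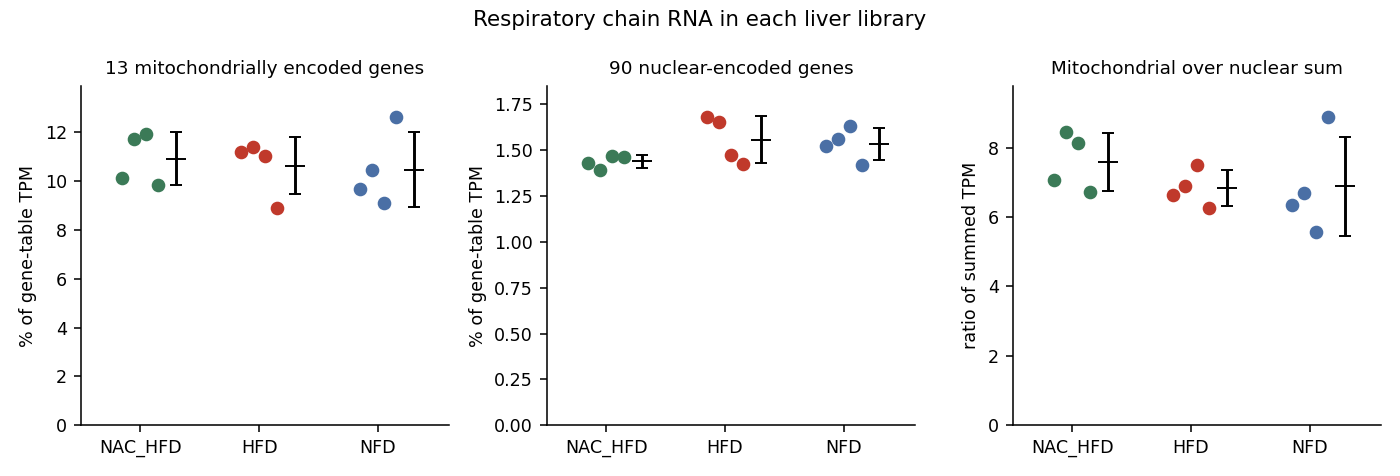
Share of gene-table TPM (%) in the 13 mitochondrially encoded genes (left) and the 90 nuclear genes (middle), and the ratio of both sums (right), for each library of NAC_HFD, HFD and NFD; points are libraries, and bars the group mean and SD (n = 4). The groups overlap in all 3 panels, and the NAC_HFD libraries lie closest together in the nuclear share, from 1.39% to 1.46%.

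The high fat diet was compared with the normal fat diet to ask whether it changes the RNA of the chain. A single member passed the test, a complex I assembly factor, and no subunit did. With limma on log2(TPM + 1) and adjustment over all 11376 tested genes, 1 of 103 members was higher and 0 lower in HFD at an adjusted p of 0.05 (0.971% in either direction), against 2.78% of all tested genes in either direction and 2.19% higher. That background was 249 genes higher and 67 lower, a split of 259 to 160 after quantile normalization and 190 to 101 with a fixed sum over the gene table. At an unadjusted p under 0.05 stood 7 members (6.80%), against 19.1% of all genes. All libraries of HFD lay above all of NFD in 6 members (5.83%, background 7.78%) and below in 0 (background 4.57%), so the members' shares were near or under the background.

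Ndufaf1 (ENSMUSG00000027305, chromosome 2, 119655446 to 119662839) encodes a factor that helps to assemble the membrane arm of complex I. It stood at 19.2, 21.4, 18.9 and 19.8 TPM in HFD and at 14.5, 14.6, 14.1 and 13.6 TPM in NFD, with no overlap. It rose by a log2 fold change of 0.45 (SE 0.09, limma adjusted p = 0.0230). NAC_HFD libraries stood at 17.6, 15.2, 20.7 and 18.0 TPM, all above NFD as well, although that difference did not pass (0.31, SE 0.09, limma adjusted p = 0.0735). The call of HFD against NFD was lost without NFD replicate 1 or without HFD replicate 1, 2 or 4, with an adjusted p of up to 0.0705 (without HFD replicate 1), and the fold change stayed between 0.37 and 0.48 over all alternatives. The sum of 4 Kupffer cell markers was 49.7 to 129 TPM in HFD and 36.1 to 69.8 TPM in NFD, all 4 with higher means in HFD. The sum of 4 adipose markers was 1.17 to 3.50 TPM in HFD and 0.07 to 0.23 TPM in NFD, mostly Cidea, which fatty liver also makes, while the defining fat cell gene Adipoq was at 0 to 0.15 TPM. The part of these markers in the result was not tested.

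The other members with the smallest p belong to complex I, and none passed. Ndufb3, an accessory subunit, had 47.5, 47.9, 51.6 and 47.5 TPM in HFD and 36.5, 39.8, 41.9 and 36.8 TPM in NFD (0.32, SE 0.10, limma adjusted p = 0.112). Ndufs8, an iron-sulphur core subunit, had 66.0, 66.0, 65.0 and 59.3 TPM in HFD and 52.5, 56.4, 58.8 and 51.5 TPM in NFD (0.22, SE 0.08, limma adjusted p = 0.147). In both genes the groups did not overlap. Ndufc2 followed with a log2 fold change of 0.20 (limma adjusted p = 0.202). Ndufs7, the core subunit next to the quinone site, had the opposite sign (-0.24, limma adjusted p = 0.214, and -0.14 without NFD replicate 3), with 49.4 to 58.1 TPM in HFD and 57.7 to 76.4 TPM in NFD.

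As a class, nuclear members had a median log2 fold change of 0.06 in HFD against NFD, and mitochondrial members one of 0.03, beside 0.01 for all tested genes. Positive values were found in 64 of 90 nuclear members, but in 42 of 90 after quantile normalization. By complex, 29 of 36 nuclear complex I subunits were positive, 3 of 4 of complex II, 6 of 8 of complex III, 9 of 12 of complex IV and 10 of 16 of complex V, with medians of 0.07, 0.15, 0.03, 0.07 and 0.01. After quantile normalization these counts were 19 of 36, 3 of 4, 3 of 8, 6 of 12 and 5 of 16. Complex II, succinate dehydrogenase, kept 3 of 4 positive and the largest median of the 5 under all 5 scalings. Its flavoprotein Sdha averaged 172 ± 15.3 TPM in HFD and 148 ± 16.4 TPM in NFD, and its membrane anchor Sdhc 66.7 ± 4.09 TPM in HFD and 58.5 ± 1.63 TPM in NFD. Sdhb, the iron-sulphur subunit, averaged 113 ± 6.73 TPM in HFD and 105 ± 18.7 TPM in NFD, and Sdhd, the other anchor, 101 ± 10.8 TPM in HFD and 110 ± 24.1 TPM in NFD. None of the 4 passed.

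**Figure D2:**
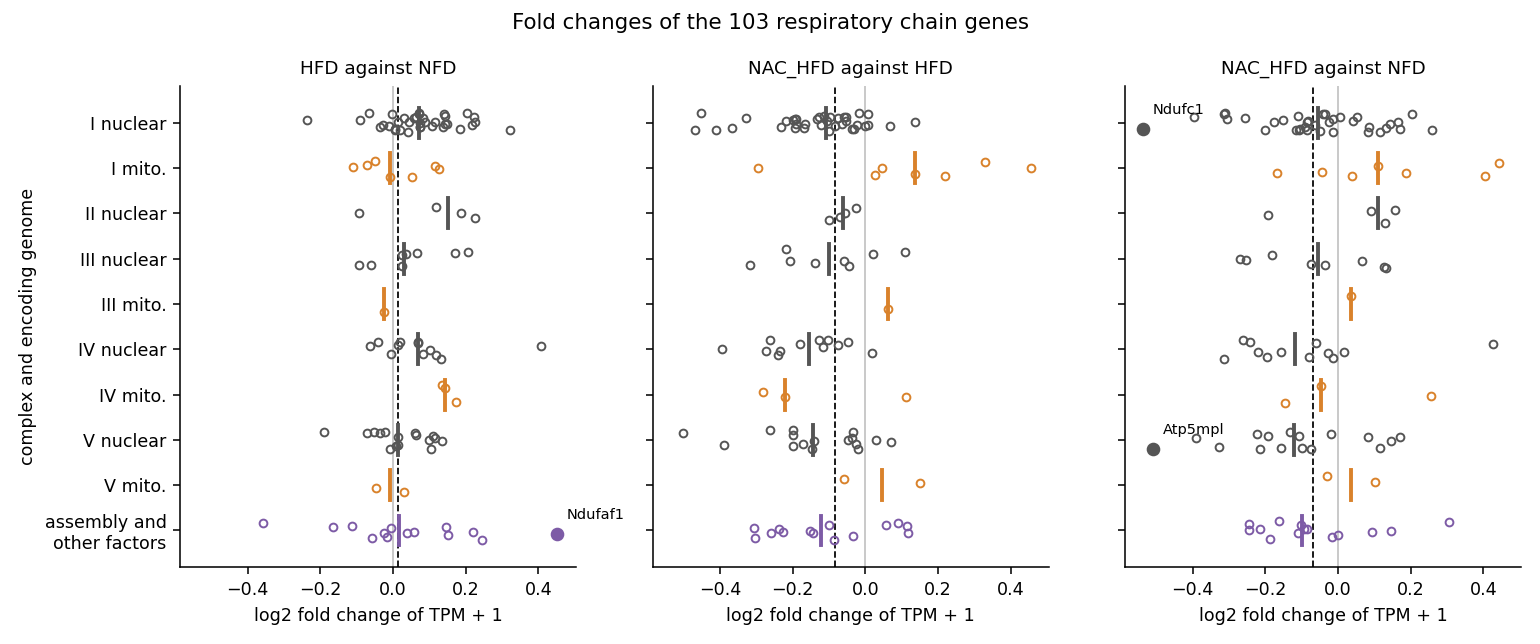
Log2 fold change of TPM + 1 for each of the 103 members (circles, jittered), by complex and encoding genome, in HFD against NFD, NAC_HFD against HFD and NAC_HFD against NFD; filled, named circles pass an adjusted p of 0.05, short bars are medians, and the dashed line is the median of all tested genes. In both NAC_HFD panels nuclear subunits lie mostly left of 0, as the median of all genes does (-0.08 and -0.07), and mitochondrial complex I genes mostly right of it. After scaling by median of ratios the nuclear members divide more evenly, 37 of 90 and 43 of 90 being positive.

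N-acetylcysteine was compared within the high fat diet to ask what the compound changes on that diet. Most nuclear members read lower with it, but so did most of the transcriptome, and no member passed. At an adjusted p of 0.05 limma called 0 of 103 members and 0.0% of the 11376 tested genes, and 0 members in every alternative run. At an unadjusted p under 0.05 stood 18 members (17.5%), against 16.4% of all genes. All libraries of NAC_HFD lay below all of HFD in 10 members (9.71%, background 8.66%) and above in 0 (background 1.56%, or 10.2% in either direction). The median log2 fold change was -0.11 over nuclear members and -0.08 over all tested genes. The 4 Kupffer cell markers summed to 34.0 to 63.6 TPM in NAC_HFD and 49.7 to 129 TPM in HFD, and the 4 adipose markers to 0.20 to 0.52 TPM in NAC_HFD and 1.17 to 3.50 TPM in HFD, with Adipoq at 0 in all NAC_HFD libraries. Their part in these differences was not tested. Of 90 nuclear members 14 were positive (15.6%), beside 31.5% of all genes. After scaling by median of ratios, which centres all genes near 0, 37 of 90 were positive with a median of -0.02, and after quantile normalization 35 of 90 with a median of -0.03.

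The 5 nuclear members with the smallest p are small accessory or membrane subunits, none past the threshold. Ndufa2, an accessory subunit of the complex I arm that takes NADH, had 46.1, 40.6, 44.0 and 42.0 TPM in NAC_HFD and 65.7, 65.2, 55.2 and 52.6 TPM in HFD (-0.45, SE 0.10, limma adjusted p = 0.0731). Ndufab1, the mitochondrial acyl carrier protein that is also a complex I subunit, had 80.6, 68.4, 86.5 and 79.7 TPM in NAC_HFD and 123, 111, 98.5 and 89.6 TPM in HFD (-0.41, SE 0.11, limma adjusted p = 0.110). Neither pair of groups overlapped. From coding transcripts alone Ndufab1 gave -0.26 (limma adjusted p = 0.377). Ndufc1 (-0.47, SE 0.11, limma adjusted p = 0.0731) and Atp5mpl (-0.50, SE 0.13, limma adjusted p = 0.0922) are described with the next comparison. Uqcrq, a small subunit of complex III, had 401, 326, 373 and 357 TPM in NAC_HFD and 495, 458, 467 and 398 TPM in HFD, which overlap (-0.32, SE 0.10, limma adjusted p = 0.160).

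By role, the membrane and peripheral stalk subunits of ATP synthase shared a sign: 0 of 11 nuclear genes were positive in NAC_HFD against HFD, with a median of -0.17, but 3 of 11 and a median of -0.07 after scaling by median of ratios or quantile normalization. The F1 head and central stalk, which makes the ATP, had 2 of 5 positive and a median of -0.02, which became 4 of 5 and 0.08 after scaling by median of ratios. The 3 genes Atp5g1, Atp5g2 and Atp5g3 encode the same mature c subunit of the rotor ring from different precursors. Atp5g1 averaged 116 ± 17.0 TPM in NAC_HFD, 133 ± 16.2 TPM in HFD and 151 ± 15.3 TPM in NFD. Atp5g2 averaged 75.0 ± 8.58 TPM in NAC_HFD, 82.6 ± 3.88 TPM in HFD and 87.2 ± 9.30 TPM in NFD. Atp5g3 averaged 211 ± 12.01 TPM in NAC_HFD, 243 ± 18.7 TPM in HFD and 247 ± 11.1 TPM in NFD. In contrast, Atp5a1, the alpha subunit of the head, averaged 429 ± 16.0 TPM in NAC_HFD, 408 ± 23.9 TPM in HFD and 381 ± 32.6 TPM in NFD. Atp5b, the beta subunit, averaged 381 ± 35.7 TPM in NAC_HFD, 393 ± 29.2 TPM in HFD and 413 ± 78.3 TPM in NFD. For Atp5e, a stalk subunit, the means were 121 ± 8.36 TPM in NAC_HFD, 145 ± 10.5 TPM in HFD and 135 ± 5.94 TPM in NFD. None of these genes passed in any comparison.

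Nuclear complex IV had 1 of 12 subunits positive in NAC_HFD against HFD, with a median of -0.15, and 3 of 12 with a median of -0.06 after scaling by median of ratios. Cox5a, which binds the haem-bearing core from the matrix side, averaged 101 ± 11.7 TPM in NAC_HFD, 122 ± 11.3 TPM in HFD and 126 ± 16.8 TPM in NFD. Ndufa4, first assigned to complex I and now to complex IV, averaged 226 ± 15.8 TPM in NAC_HFD, 256 ± 21.7 TPM in HFD and 267 ± 24.1 TPM in NFD. Cox6c, the most abundant nuclear member by gene TPM, averaged 368 ± 55.1 TPM in NAC_HFD, 486 ± 91.2 TPM in HFD and 439 ± 39.1 TPM in NFD. These 3 genes had their lowest mean in NAC_HFD, but NAC_HFD overlapped HFD in each, as HFD did NFD. Only in Ndufa4 did every NAC_HFD library lie below every NFD library (limma adjusted p = 0.166). None of the 3 passed with all 12 libraries. In coding transcripts alone Cox6c averaged 159 ± 48.2 TPM in NAC_HFD, 196 ± 23.4 TPM in HFD and 157 ± 23.3 TPM in NFD, so NAC_HFD was not the lowest there. Cox4i1, the regulatory subunit that can bind ATP, averaged 366 ± 32.3 TPM in NAC_HFD, 378 ± 24.7 TPM in HFD and 375 ± 49.5 TPM in NFD. Cox6b1, which faces the intermembrane space, averaged 326 ± 25.1 TPM in NAC_HFD, 343 ± 28.8 TPM in HFD and 344 ± 16.3 TPM in NFD. In both, and in Cox6a1, Cox8a, Cox5b and Cox7a2, the groups overlapped in every comparison. Cox7a2l, which helps complexes III and IV to join, averaged 70.0 ± 4.42 TPM in NAC_HFD, 65.7 ± 2.75 TPM in HFD and 63.5 ± 7.44 TPM in NFD. 

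Of complexes I and III, 4 subunits of the fixed panel had groups that overlapped in every comparison. The Rieske iron-sulphur protein Uqcrfs1 of complex III averaged 60.6 ± 4.71 TPM in NAC_HFD, 70.2 ± 5.79 TPM in HFD and 73.5 ± 8.00 TPM in NFD. Uqcrc1, a subunit of complex III without a redox centre, averaged 135 ± 6.56 TPM in NAC_HFD, 125 ± 5.95 TPM in HFD and 123 ± 12.4 TPM in NFD. In complex I the NADH-binding Ndufv1 averaged 66.4 ± 1.03 TPM in NAC_HFD, 66.3 ± 6.28 TPM in HFD and 70.9 ± 8.48 TPM in NFD. The largest iron-sulphur subunit, Ndufs1, averaged 63.8 ± 1.84 TPM in NAC_HFD, 64.7 ± 3.47 TPM in HFD and 61.6 ± 4.90 TPM in NFD. None of these 4 genes passed. Among the other core subunits of complex I, groups did not overlap for Ndufs8 in HFD against NFD and for Ndufs7 in NAC_HFD against NFD. Nuclear complex I had 5 of 36 subunits positive in NAC_HFD against HFD, with a median of -0.11, but 15 of 36 and a median of -0.01 after scaling by median of ratios.

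NAC_HFD was compared with NFD to set the treated animals against the normal diet. Here 2 members fell past the threshold, both small membrane subunits, and 0 rose (1.94%), against 5.28% of all tested genes in either direction and 3.52% lower. The background was 200 genes higher and 401 lower, but 363 higher and 269 lower after scaling by median of ratios. At an unadjusted p under 0.05 stood 18 members (17.5%), against 22.6% of all genes. All libraries of NAC_HFD lay below all of NFD in 10 members (9.71%, background 8.52%) and above in 4 (3.88%, background 3.52%). Medians were -0.08 over nuclear members, 0.04 over mitochondrial members and -0.07 over all genes. Kupffer cell markers summed to 34.0 to 63.6 TPM in NAC_HFD and 36.1 to 69.8 TPM in NFD, and adipose markers to 0.20 to 0.52 TPM in NAC_HFD and 0.07 to 0.23 TPM in NFD. This comparison shares the NAC_HFD libraries with the preceding one and the NFD libraries with the first, and the first 2 comparisons share the HFD libraries, so their fold changes are not independent.

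Ndufc1 (ENSMUSG00000037152, chromosome 3, 51405479 to 51408955), an accessory subunit of the complex I membrane arm, had 29.7, 24.9, 33.2 and 30.6 TPM in NAC_HFD, against 42.2, 44.0, 50.05 and 37.3 TPM in NFD. HFD libraries stood at 43.9, 42.5, 38.1 and 40.4 TPM, and every NAC_HFD library lay below every library of the other groups. The log2 fold change against NFD was -0.54 (SE 0.11, limma adjusted p = 0.0164), and the call held without any 1 of the 8 libraries compared, with an adjusted p of at most 0.0434. It was lost when NAC_HFD and NFD were fitted without HFD (adjusted p = 0.0558). However, 98.0% of the gene's TPM sat in transcripts of the lncRNA table. The single transcript NONMMUT147356.1 averaged 26.4 ± 1.63 TPM in NAC_HFD, 36.7 ± 3.75 TPM in HFD and 35.9 ± 4.01 TPM in NFD, whereas the expressed coding transcript averaged 0.780 ± 0.432 TPM in NAC_HFD, 0.707 ± 0.181 TPM in HFD and 0.835 ± 0.296 TPM in NFD. From coding transcripts alone Ndufc1 was too low to be tested.

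Atp5mpl (ENSMUSG00000021290, chromosome 12, 111961374 to 111967009) encodes a small proteolipid of the ATP synthase membrane part. It had 84.4, 54.7, 74.2 and 68.5 TPM in NAC_HFD, against 105, 106, 104 and 84.5 TPM in NFD, and 108, 104, 94.95 and 90.3 TPM in HFD. NAC_HFD and NFD do not overlap, but by a margin of 84.42 against 84.48 TPM. The log2 fold change against NFD was -0.51 (SE 0.13, limma adjusted p = 0.0344). The call was lost in 6 of the 8 fits that leave out a library, namely without NFD replicate 1, 2 or 3 or NAC_HFD replicate 2, 3 or 4, with an adjusted p of up to 0.0874 without NFD replicate 1. Without NFD replicate 4 it held, and Ndufa2 and Cox5a then passed too. Its TPM came from coding transcripts for all but 6.06%.

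Next by p, without passing, came Ndufaf1 (above), Ndufs7 and Atp5g1. Ndufs7 had 52.2, 50.9, 49.5 and 48.7 TPM in NAC_HFD and 60.5, 58.3, 76.4 and 57.7 TPM in NFD (-0.31, SE 0.10, limma adjusted p = 0.0829). Atp5g1 had 130, 91.6, 124 and 117 TPM in NAC_HFD and 150, 148, 172 and 135 TPM in NFD (-0.39, SE 0.13, limma adjusted p = 0.0908). In both the groups did not overlap. Among the membrane and peripheral stalk subunits of ATP synthase, 1 of 11 nuclear genes was positive, with a median of -0.19, and 3 of 11 with a median of -0.11 after scaling by median of ratios.

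**Figure D3:**
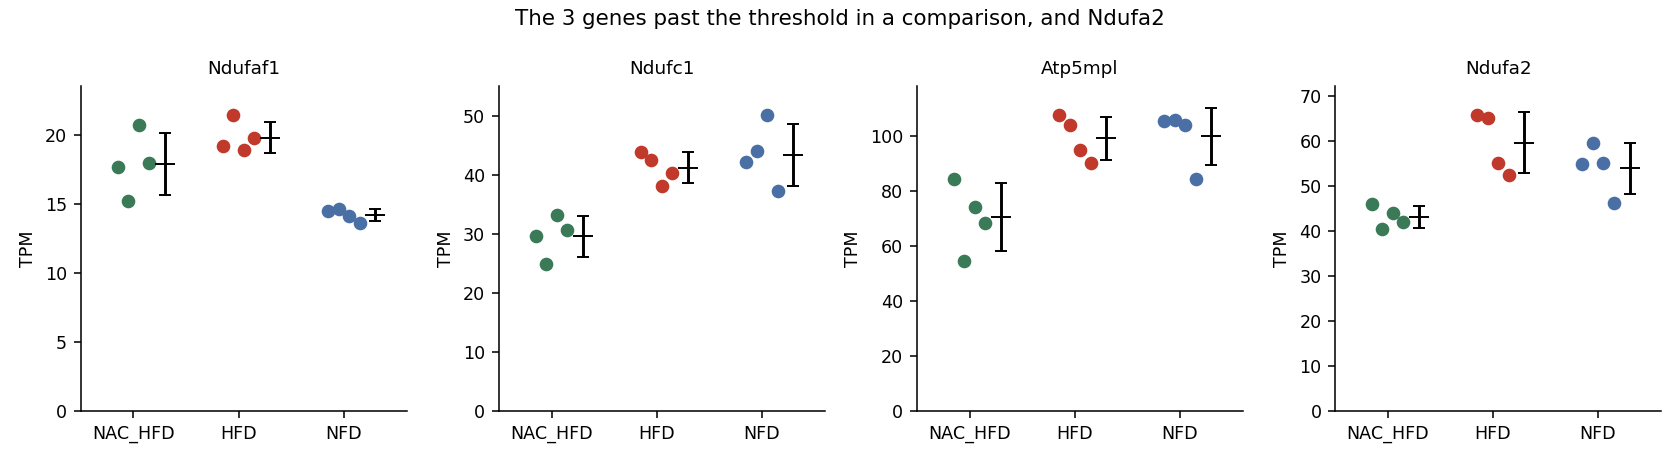
TPM of Ndufaf1, Ndufc1, Atp5mpl and Ndufa2 in each library of NAC_HFD, HFD and NFD; points are libraries, and bars the group mean and SD (n = 4). Ndufaf1 lies lowest in NFD (13.6 to 14.6 TPM), while the other 3 lie lowest in NAC_HFD.

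The 13 mitochondrial genes lay far above the nuclear subunits in level and differed among themselves in direction. By TPM, a level per length, the order of the means was mt-Co1 (16930.4), mt-Co3 (11480.2), mt-Nd4l (8621), mt-Atp6 (6837), mt-Atp8 (5238), mt-Cytb (4835), mt-Co2 (4702), mt-Nd4 (3824), mt-Nd2 (2841), mt-Nd1 (2625), mt-Nd3 (1977), mt-Nd5 (1935) and mt-Nd6 (1833). Neighbours from mt-Atp8 to mt-Co2, from mt-Nd2 to mt-Nd1 and from mt-Nd3 to mt-Nd6 differed by less than their spread over libraries. The gene pairs mt-Atp8 and mt-Atp6, mt-Nd4l and mt-Nd4, and mt-Nd5 and mt-Nd6 overlap on the genome, the last on opposite strands. How reads there, or in nuclear copies of mitochondrial DNA, were divided between genes remains not given in the sources used here. Between replicates the SD of the class median, pooled over groups, was 0.25 (log2) for mitochondrial genes and 0.10 for nuclear members. Both values describe the median of a class in each library, so they do not give the precision of single genes.

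None of the 13 passed in any comparison. In HFD against NFD, log2 fold changes ran from -0.11 to 0.17, with 0 at an unadjusted p under 0.05. In NAC_HFD against HFD they ran from -0.29 to 0.45, and the 3 subunits of complex IV differed in sign. The catalytic mt-Co1 had 18304, 18535, 18742 and 17830.4 TPM in NAC_HFD, 18083, 18127, 16804 and 15134 TPM in HFD, and 15006, 16577, 14185 and 15837 TPM in NFD. All NAC_HFD libraries lay above all NFD libraries (0.26, SE 0.10, limma adjusted p = 0.140). By contrast, mt-Co2, which takes electrons from cytochrome c, averaged 4262 ± 746 TPM in NAC_HFD, 5157 ± 682 TPM in HFD and 4686 ± 498 TPM in NFD. The third core subunit gene, mt-Co3, averaged 10775 ± 1077 TPM in NAC_HFD, 12530.1 ± 801 TPM in HFD and 11135 ± 1214 TPM in NFD. The ratio of mt-Co2 to mt-Co1, chosen after its values were seen, was 0.232 ± 0.0377 in NAC_HFD, 0.302 ± 0.0218 in HFD and 0.304 ± 0.0214 in NFD. Its values overlapped, from 0.192 to 0.283 in NAC_HFD, 0.273 to 0.326 in HFD and 0.282 to 0.333 in NFD. It was 1 of 4 ratios between mitochondrial genes computed, and none was tested.

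Of the 7 complex I genes, 6 were positive in NAC_HFD against HFD, and 4 after quantile normalization. The proton-pumping subunit gene mt-Nd5 had 1841, 2987, 2561 and 1996 TPM in NAC_HFD, 1757, 1709, 1903 and 1395 TPM in HFD, and 1506, 1581, 1638 and 2346 TPM in NFD. It gave 0.45 against HFD (SE 0.17, limma adjusted p = 0.222) and 0.40 against NFD (SE 0.17, limma adjusted p = 0.182). The single light-strand gene, mt-Nd6, had 1551, 2703, 2739 and 1786 TPM in NAC_HFD and 1630.2, 1501, 1294 and 1898 TPM in NFD (0.44, SE 0.20, limma adjusted p = 0.210, and 0.25 after quantile normalization). The exception was mt-Nd3, at 1952, 1759, 1808 and 1547 TPM in NAC_HFD and 2171, 2408, 2144 and 1940.0 TPM in HFD (-0.29, SE 0.13, limma adjusted p = 0.264). NAC_HFD replicates 2 and 3 were high in mt-Nd5 and mt-Nd6, whereas replicates 1 and 4 fell among the other groups. The remaining genes, mt-Nd1, mt-Nd2, mt-Nd4, mt-Nd4l, mt-Cytb, mt-Atp6 and mt-Atp8, had overlapping groups in every comparison.

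**Figure D4:**
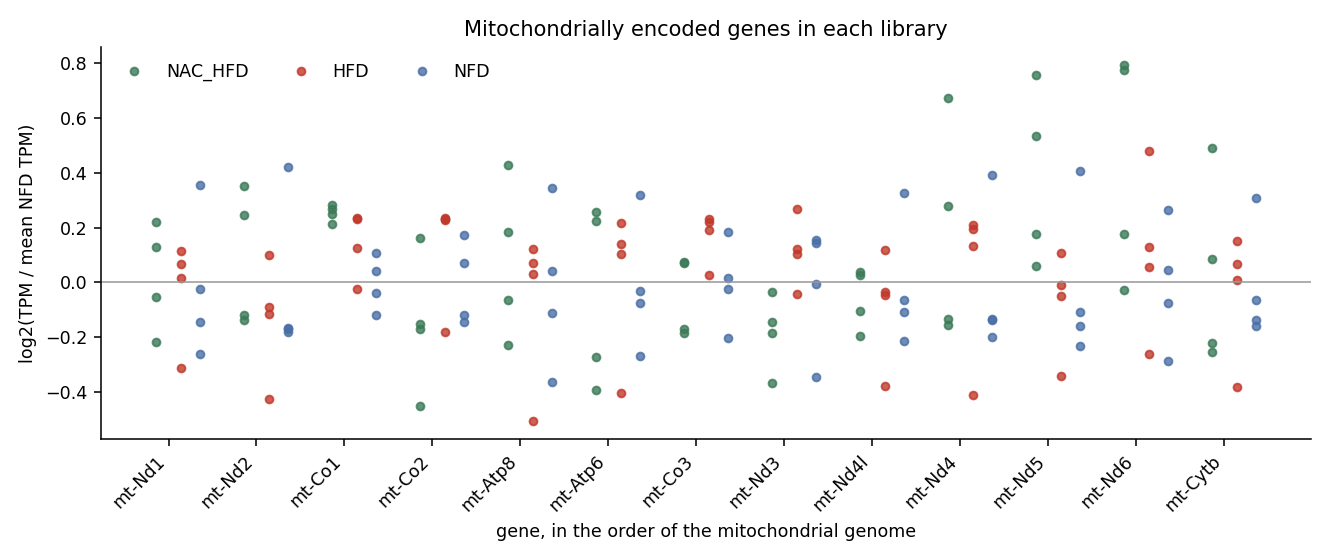
Level of each mitochondrially encoded gene in each library of NAC_HFD, HFD and NFD as log2 of its TPM over the NFD mean, with genes in the order of the mitochondrial genome; points are libraries. The 4 NAC_HFD libraries of mt-Co1 lie close together above all NFD libraries, and for mt-Nd5 and mt-Nd6 they spread widely.

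For a part of the nuclear members most of the gene value was placed on transcripts of the lncRNA table. Whether the reads behind it came from coding RNA was not tested. The gene table adds transcripts of the mRNA and the lncRNA tables, and of 90 nuclear members 37 had no TPM in the lncRNA table, 20 had over 10% there and 8 over 50%. Those 8 were Sdhaf1 (100%), a complex II assembly factor, Atp5f1 (99.0%) and Atp5j (82.9%), subunits of the ATP synthase peripheral stalk, Ndufa3 (98.3%), Ndufc1 (98.0%), Ndufb5 (73.3%) and Ndufab1 (50.1%) of complex I, and Cox6c (60.4%). With coding transcripts alone 101 of 103 members could be tested, Ndufaf1 still passed in HFD against NFD, and Atp5mpl alone passed in NAC_HFD against NFD. The authors' deposited tables of transcripts list 11 transcripts of member genes. Each of these has an unadjusted p under 0.05 and a log2 fold change over 1 in size there. The 11 are therefore a selection, not all transcripts of the members. Of them, 1 had an adjusted p under 0.05. That was a transcript of Sdhaf2, a complex II assembly factor, in the lncRNA table, with 2.42 TPM in NAC_HFD against 0.887 TPM in HFD (authors' deposited table, log2 fold change 1.53, adjusted p = 0.0257).

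**Figure D5:**
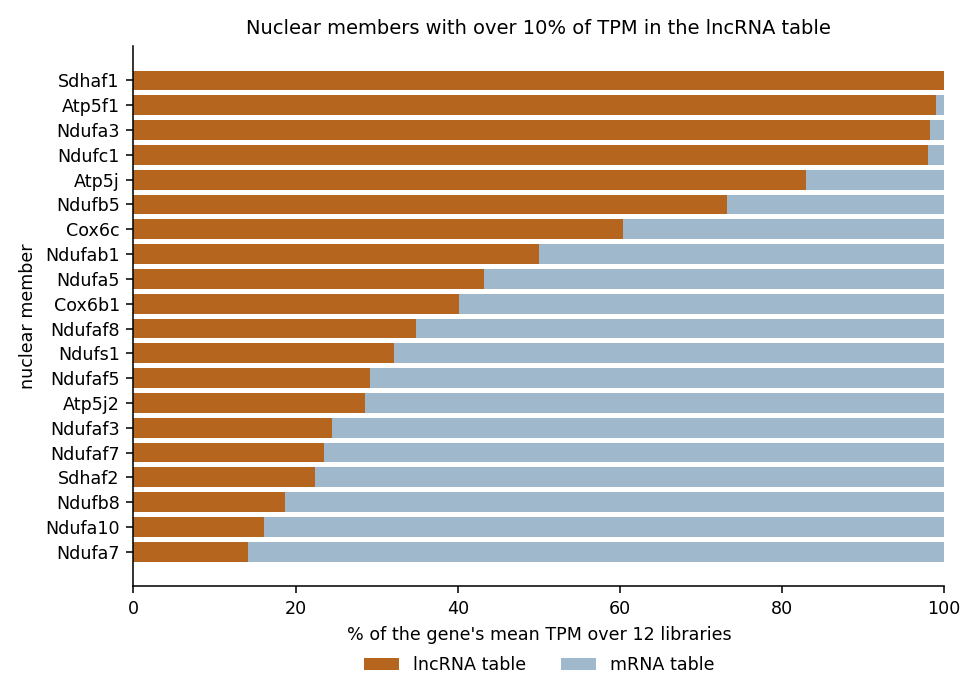
For the 20 nuclear members with over 10% of their TPM in the lncRNA table, the share of the gene's mean TPM over 12 libraries (%) that comes from each table; bars sum to 100%. The lncRNA table holds over 50% in 8 of them, Ndufc1 among these.

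Genes around the chain, outside the name rule, gave at most 1 call per list and comparison. No mitochondrial ribosomal protein passed in any comparison with limma (0 of 78 tested), and at an unadjusted p under 0.05 stood 7 in HFD against NFD (8.97%, against 19.1% of all genes), 13 in NAC_HFD against HFD (16.7%, against 16.4%) and 7 in NAC_HFD against NFD (8.97%, against 22.6%). In HFD against NFD, 1 of 18 tricarboxylic acid cycle genes rose (5.56%, against 2.19% of all genes): Suclg2, a succinyl-CoA ligase subunit, with 89.7 ± 10.7 TPM in HFD and 59.4 ± 6.58 TPM in NFD (0.59, SE 0.12, limma adjusted p = 0.0189). In the same comparison 1 of 13 carriers fell (7.69%, against 0.589% of all genes), the aspartate-glutamate carrier Slc25a12, with 2.605 ± 0.0777 TPM in HFD and 4.17 ± 0.725 TPM in NFD (-0.51, SE 0.12, limma adjusted p = 0.0337). It was also lower in NAC_HFD, at 2.76 ± 0.358 TPM (-0.45 against NFD, SE 0.12, limma adjusted p = 0.0402). From coding transcripts alone Slc25a12 was called in neither, at -0.21 in HFD (limma adjusted p = 0.436) and -0.11 in NAC_HFD (limma adjusted p = 0.698), both against NFD. Of 14 regulators of mitochondrial biogenesis 1 fell (7.14%, against 0.589%), the coactivator Pprc1, with 5.31 ± 1.49 TPM in HFD and 9.22 ± 1.76 TPM in NFD (-0.71, SE 0.18, limma adjusted p = 0.0499).

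In NAC_HFD against NFD the alpha subunit of GABP rose, 1 of the 14 regulators (7.14%, against 1.76% of all genes higher): Gabpa had 17.4, 18.6, 18.1 and 20.8 TPM in NAC_HFD and 13.6, 13.5, 13.1 and 12.4 TPM in NFD, with no overlap (0.48, SE 0.09, limma adjusted p = 0.0114). Coq8a, a kinase-like protein of ubiquinone synthesis and 1 of 22 electron carriers and feeders (4.55%), had 41.9, 32.6, 61.9 and 61.3 TPM in NAC_HFD and 27.6, 27.1, 23.5 and 26.4 TPM in NFD (0.85, SE 0.17, limma adjusted p = 0.0158). Both calls held without any 1 of the 8 libraries, but that of Coq8a was lost when NAC_HFD and NFD were fitted alone (limma adjusted p = 0.0542). Over the electron carriers and feeders, log2 fold changes reached at most 0.52 in HFD against NFD and 0.32 in NAC_HFD against HFD. Fumarase, Fh1, was the 1 of 18 tricarboxylic acid cycle genes that fell (5.56%, against 3.52% of all genes), and had 54.3 ± 2.34 TPM in NAC_HFD and 87.7 ± 27.3 TPM in NFD (-0.64, SE 0.16, limma adjusted p = 0.0382), with 127 TPM in NFD replicate 3. Cox14, a complex IV assembly factor and 1 of 37 assembly genes (2.70%), had 11.7 ± 0.961 TPM in NAC_HFD and 15.4 ± 1.62 TPM in NFD (-0.37, SE 0.10, limma adjusted p = 0.0445). Fastk, of a family that acts on mitochondrial RNA and 1 of 29 genes for upkeep and expression of mitochondrial DNA (3.45%), had 17.8 ± 1.07 TPM in NAC_HFD and 24.2 ± 3.47 TPM in NFD (-0.42, SE 0.10, limma adjusted p = 0.0322), but from coding transcripts alone the sign turned (0.041, limma adjusted p = 0.927). Most of the calls outside the chain were lost when 1 library was left out. Against NFD in NAC_HFD, those of Fh1 and Cox14 held without NFD replicate 4 and were lost without any other of the 8 libraries, with adjusted p of up to 0.0883 and 0.114 without NAC_HFD replicate 4. That of Fastk was lost without NFD replicate 1, 3 or 4 or NAC_HFD replicate 3 or 4 (up to 0.0873), and that of Slc25a12 without NFD replicate 1, 3 or 4 or NAC_HFD replicate 2, 3 or 4 (up to 0.108). In HFD against NFD, Slc25a12 held without NFD replicate 2 alone (up to 0.1002 without HFD replicate 4) and Pprc1 without NFD replicate 3 or HFD replicate 3 (up to 0.152 without HFD replicate 1). Suclg2 was lost without HFD replicate 1 or 2 (up to 0.0752). Other settings ended calls too. In NAC_HFD against NFD, scaling by median of ratios ended those of Fastk (0.0745), Slc25a12 (0.0582), Fh1 (0.0536) and Cox14 (0.0531), and quantile normalization those of Slc25a12 (0.0661) and Fastk (0.0619). All 4 were lost with no filter on low values (0.0564 to 0.0832) and with NAC_HFD and NFD fitted alone (0.0908 to 0.109), and Cox14 also from coding transcripts (0.0555). In HFD against NFD, no filter ended the calls of Slc25a12 (0.0573) and Pprc1 (0.103), and that of Pprc1 was lost as well with a pseudocount of 0.1 TPM (0.0516), with HFD and NFD fitted alone (0.0571) or without limma's trend and robust options (0.0567). With a pseudocount of 5 TPM the fold changes of Slc25a12 shrank to -0.27 in HFD and -0.24 in NAC_HFD and that of Pprc1 to -0.47. All these are limma adjusted p-values, and in NAC_HFD against HFD none of these genes passed. NAC_HFD and NFD differ in both diet and compound, so a difference between them is not one of the compound alone.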

How the data were processed

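Liver RNA of 12 samples was sequenced by the submitters, and the labels gave each sample its group (4 each) and replicate number. TRIzol extraction of total RNA and a DNase I treatment are recorded per the labels' protocols. Per the submitters' processing notes, fastp, HISAT and RSEM served with build GRCm38. Tool versions, strandedness, enrichment of RNA and the division of reads between paralogs, pseudogenes and overlapping genes: not given in the sources used here.

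Throughout the deposited gene, mRNA and lncRNA tables the authors give TPM, so depth is unknown, no counting interval was computed, and low values carry an unknown counting error. A gene's value is the total over its transcripts in both other tables, which held within 0.1 TPM or 1 percent for all 19252 genes. Per the file headers, the authors' comparison tables give a fold as a ratio, its log2, a p-value and an adjusted p-value. They served for the statement on listed transcripts.

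Genes with at least 1 TPM in at least 4 of 12 libraries were tested (11376, with all 103 members) on log2(TPM + 1), which shrinks the fold changes of low genes. Using limma 3.58.1 (trend, robust) in R 4.3.3, 3 group means were estimated from all libraries, with 9 residual degrees of freedom. The code was also run on simulated data with independent noise for each gene, which checks the code and not the calls made here. P-values were two-sided and adjusted by Benjamini and Hochberg within a comparison, over every tested gene. Sets of genes are described by counts and medians with no test. Promoter windows and positions are from RefSeq, matched by symbol.

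Members and lists were chosen with earlier results of these data known. By rule, the text names members past the threshold, or the 5 with the smallest unadjusted p where fewer than 3 passed. It also names all mitochondrial genes, the nuclear member of highest and of lowest mean in each complex, a fixed panel of subunits, the genes nearest a mean of 1 TPM, and up to 3 related genes past the threshold per list. Any other gene named was chosen after its values were seen. Alternatives varied the pseudocount, filter, scaling, transcripts counted, groups fitted, moderation, replicate block and libraries used.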

Additional observations from a re-analysis of the deposited data

Results flagged for a closer look

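Within groups of 4, single libraries stood far from the other 3 in 11 of 81 sets of values looked at, where chance gives about 1 in 20. The sets are not independent, since they read the same libraries through related genes and sums of them. The excess over chance therefore cannot be judged from this count. NFD replicate 4 was the highest of its group in mt-Nd2 (3813 TPM), mt-Nd4 (4713 TPM) and mt-Nd5 (2346 TPM) and the lowest in Atp5mpl (84.5 TPM). HFD replicate 4 was the lowest of its group in the mitochondrial share of gene-table TPM (8.91%), mt-Nd4 (2701 TPM), mt-Co2 (4134 TPM), Ndufs8 (59.3 TPM) and Atp5g1 (109 TPM). The others were Ndufb3 in HFD replicate 3 (51.6 TPM, highest) and Ndufs7 in NFD replicate 3 (76.4 TPM, highest). Without both replicates 4, an alternative chosen after the data were seen, Ndufaf1 no longer passed in HFD against NFD (limma adjusted p = 0.112), while Ndufc1, Atp5mpl, Cox5a and Ndufa2 passed in NAC_HFD against NFD.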

How the results depend on the processing

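In HFD against NFD, the 1 member past the threshold (Ndufaf1) became 0 with the replicate block (limma adjusted p = 0.0562) and 0 without NFD replicate 4 and HFD replicate 4 together, a choice made after seeing the data, and leaving out single libraries gave 0 to 1. In NAC_HFD against NFD, the 2 members became 1 with no filter, 4 after quantile normalization (Ndufa2 and Ndufaf1 added), 1 with coding transcripts alone, 0 when those 2 groups were fitted alone, and 4 without both replicates 4, while leaving out single libraries gave 1 to 4. In NAC_HFD against HFD, 0 members passed in every fit. Outside the chain, Fastk changed sign with coding transcripts alone (log2 fold change 0.041 in NAC_HFD against NFD). With both transcript tables as the total, the mitochondrial share was 7.54% in NAC_HFD, 7.43% in HFD and 7.13% in NFD, and the nuclear share 0.993%, 1.09% and 1.05% in these groups. With coding transcripts alone, the nuclear share was 1.27% in NAC_HFD, 1.37% in HFD and 1.33% in NFD. The causes were not tested, apart from the larger total that lowers the shares and the transcripts left out.

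Nothing in the labels says that equal replicate numbers pair the samples, and the values gave little sign of it. Deviations from group means correlated at -0.17 to 0.18 over the 12 pairs of same-numbered libraries, 2 of 12 over 0.1. Only 3 of 12 libraries correlated best with their own number. Such correlations cannot show whether same-numbered samples shared a cage or a day. With the replicate as a block, members past the threshold numbered 0 in HFD against NFD, 0 in NAC_HFD against HFD and 2 in NAC_HFD against NFD. Calls outside the chain that were lost under the block were Pprc1 in HFD against NFD (limma adjusted p = 0.0720) and Fh1 (0.0716), Cox14 (0.0582), Fastk (0.0549) and Slc25a12 (0.0517) in NAC_HFD against NFD. TPM without read depth limits what low genes such as Cox7a1 and the assembly factors can show.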
